A study of Homo sapiens with 8 samples.

Results

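The 10 genes described here encode the subunits of the anaphase-promoting complex (APC/C) that carry an ANAPC name: ANAPC1, ANAPC2, ANAPC4, ANAPC5, ANAPC7, ANAPC10, ANAPC11, ANAPC13, ANAPC15 and ANAPC16. They were taken by name from an RPKM table of 25369 genes (reads divided by the gene's length in kilobases and by the size of its library), and all 10 passed the filter on low values. RNA was sequenced from EPC2-hTERT cells, a telomerase-immortalized human esophageal keratinocyte line labelled wild type, grown at an air-liquid interface. The tested cultures received 1 mM dimethyloxalylglycine (DMOG) for 18 h and the controls DMSO vehicle, with 4 libraries in each group. DMOG is a cell-permeable 2-oxoglutarate analog that blocks prolyl hydroxylases, the enzymes that tag the alpha subunits of hypoxia-inducible factor (HIF) for breakdown. Every culture, with or without DMOG, was grown to confluence for 2 days, kept in 1.8 mM CaCl2 for 5 days and exposed to air for 4 days. The line comes from a single immortalized culture, and the labels do not say that libraries are separate cultures, so p-values measure the spread between these libraries, which may be technical.

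The APC/C is a large ubiquitin ligase that marks cyclins, securin and other proteins for the proteasome, and so drives cells out of mitosis and holds them in G1. A catalytic module, made of the cullin-like ANAPC2, the RING protein ANAPC11 and the substrate-binding ANAPC10, is carried by a platform of ANAPC1, ANAPC4, ANAPC5 and ANAPC15. An arc of tetratricopeptide-repeat subunits (ANAPC7, CDC27, CDC16, CDC23), steadied by the small proteins ANAPC13, ANAPC16 and CDC26, binds the coactivators CDC20, in mitosis, and FZR1 (CDH1), in G1 and in resting and differentiating cells.

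Libraries held 31245695 to 34171313 reads with DMOG and 32707991 to 39931833 with vehicle. Basal keratinocyte markers were abundant, KRT5 at 5470 to 7256 RPKM with DMOG and 3922 to 8148 RPKM with vehicle, and of 11 markers of other cell types 9 stayed at or under 0.0380 RPKM in every library, DCN and HDC at 0. The other 2 were detected in every library, KRT8, a simple-epithelium keratin, at 21.6 to 44.2 RPKM with DMOG and 23.2 to 41.1 RPKM with vehicle, and VWF at 0.862 to 1.67 RPKM with DMOG and 1.41 to 1.95 RPKM with vehicle. ENO2, an enolase induced by HIF, stood at 70.2, 1.93, 23.7 and 157 RPKM in DMOG replicates 1 to 4 and at 1.91, 0.795, 1.82 and 1.45 RPKM in vehicle replicates 1 to 4. The library of DMOG replicate 2 thus stood apart from the others of its group and beside the vehicle libraries. Group means in the authors' deposited table are weighted sums of the libraries in which replicate 2 of either group has a weight of 0.0000. The subunits are therefore described in the 6 libraries of replicates 1, 3 and 4 and in all 8.

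With DMOG, 7 of the 10 subunits were lower in the 6 libraries and none was higher: ANAPC1, ANAPC4, ANAPC5, ANAPC7, ANAPC10, ANAPC13 and ANAPC16. The 3 that did not pass were the catalytic pair ANAPC2 and ANAPC11, and ANAPC15. Log2 fold changes of the 7 ran from -0.74 for ANAPC1 to -0.49 for ANAPC13 (limma-trend on RPKM divided by median-ratio factors, adjusted over 11122 genes). Over all genes tested, 16.1% were called lower and 13.7% higher, 29.8% in either direction. The family was chosen by its fold changes and adjusted p-values in this same contrast, so its counts and adjusted p-values describe where they fall in the fit of all genes and support nothing about the choice. In all 8 libraries 0 subunits and 0% of genes were called by limma-trend. At an unadjusted p under 0.05 there were 1556 genes higher and 1813 lower, and limma-voom also called 0. Without vehicle replicate 1 or vehicle replicate 4, 0 subunits were called over the 6 libraries, 1 without DMOG replicate 1, 4 without vehicle replicate 3, 5 without DMOG replicate 4 and 7 without DMOG replicate 3. Over all genes tested, 1792 were called lower with the 6 libraries. Without these libraries, in the same order, 539, 587, 607, 1018, 1545 and 2527 genes were called lower.

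**Figure D1:**
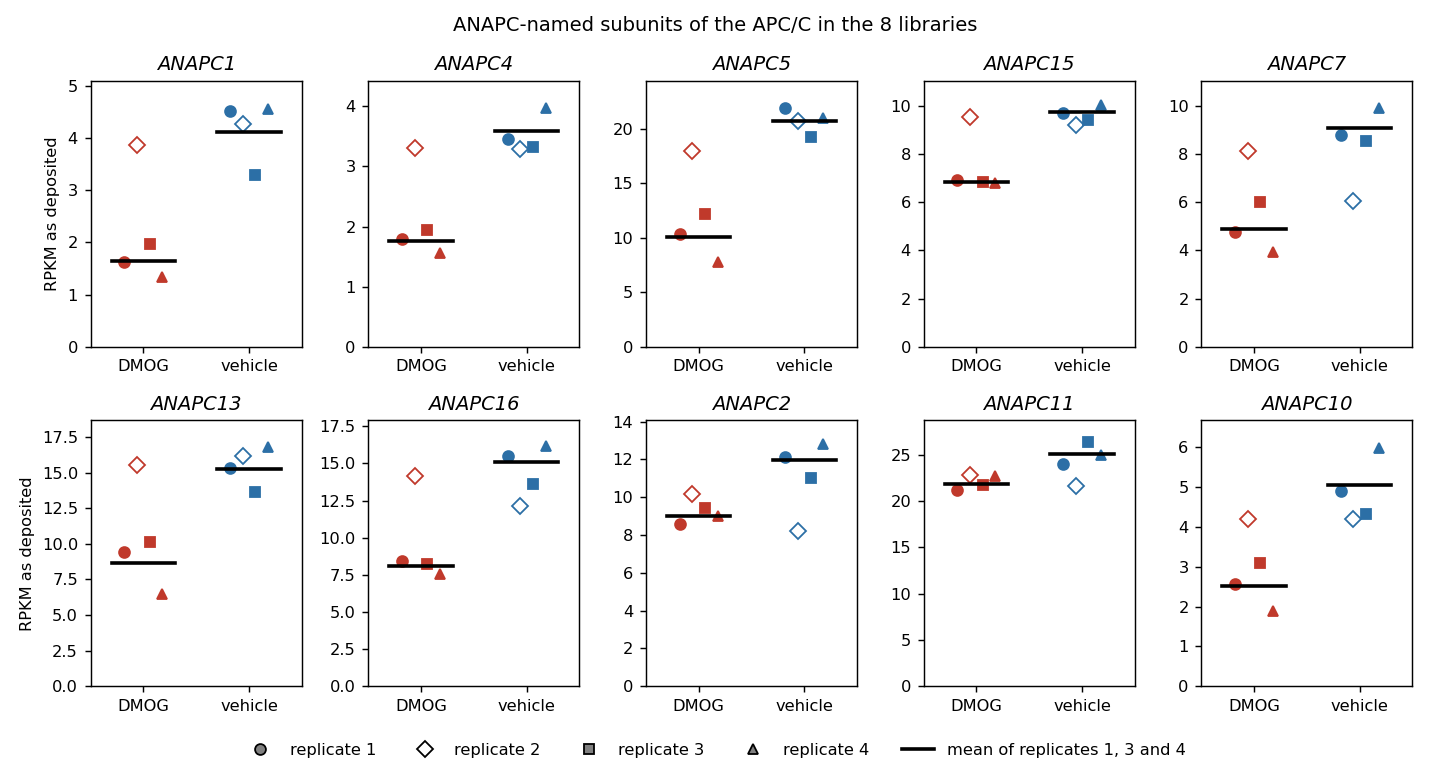
RPKM as deposited (vertical axes, each from 0) of the 10 subunits in DMOG and vehicle libraries, with a symbol for each replicate number, open diamonds for replicate 2 and a bar for the mean of replicates 1, 3 and 4. DMOG replicate 2 lies above the other DMOG libraries for all 10 subunits as deposited, and with median-ratio factors for 8, not ANAPC2 and ANAPC11. The share of all genes highest in replicate 2 was not counted. DMOG replicates 1, 3 and 4 lie below vehicle replicates 1, 3 and 4 in each panel, as they did for 45.6% of all genes.

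The 2 largest decreases were those of the platform subunits ANAPC1 and ANAPC5. ANAPC1 (chromosome 2, 112525214 to 112641741, minus strand, hg19), the scaffold that joins platform and arc, had 1.62, 3.87, 1.96 and 1.34 RPKM in DMOG replicates 1 to 4, against 4.51, 4.27, 3.29 and 4.56 RPKM in vehicle replicates 1 to 4. The DMOG values apart from replicate 2 lay below every vehicle value, and replicate 2 lay among the vehicle values. Over the 6 libraries it averaged 1.64 ± 0.314 RPKM with DMOG and 4.12 ± 0.720 RPKM with vehicle (SD, n = 3 each). The log2 fold change was -0.74 ± 0.14 (SE, limma-trend adjusted p = 0.0119), and limma-voom on the recovered reads, which adds no RPKM pseudocount, gave -1.02. Over all 8 libraries the change was -0.59 ± 0.19 (adjusted p = 0.118).

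ANAPC5 (chromosome 12, 121746048 to 121792012, minus strand), a platform subunit with tetratricopeptide repeats, had 10.3, 18.0, 12.2 and 7.80 RPKM in DMOG replicates 1 to 4, against 21.9, 20.7, 19.3 and 21.0 RPKM in vehicle replicates 1 to 4. Here all 4 DMOG libraries, replicate 2 included, lay below all 4 vehicle libraries. The means were 10.1 ± 2.21 RPKM with DMOG and 20.7 ± 1.34 RPKM with vehicle (SD, n = 3 each). The fold change on the log2 scale was -0.70 ± 0.14 (limma-trend adjusted p = 0.0127), and -0.59 ± 0.17 over 8 libraries (adjusted p = 0.118).

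ANAPC4 (chromosome 4, 25378848 to 25420120, plus strand), which links ANAPC1 and ANAPC5, was among the least abundant subunits, with 130 to 362 reads per library. It had 1.80, 3.30, 1.94 and 1.56 RPKM in DMOG replicates 1 to 4, against 3.46, 3.29, 3.32 and 3.97 RPKM in vehicle replicates 1 to 4. DMOG replicates 1, 3 and 4 were low and replicate 2 was level with vehicle replicates 2 and 3. Its log2 fold change was -0.51 ± 0.11 (limma-trend adjusted p = 0.016), -0.72 by limma-voom, and -0.40 ± 0.14 over 8 libraries (adjusted p = 0.121). ANAPC15 (chromosome 11, 71820633 to 71823822, minus strand), the platform subunit that helps release the mitotic checkpoint complex, differed from these. It had 6.90, 9.53, 6.85 and 6.79 RPKM in DMOG replicates 1 to 4, against 9.72, 9.18, 9.42 and 10.05 RPKM in vehicle replicates 1 to 4, and a log2 fold change of -0.18 ± 0.09 (limma-trend adjusted p = 0.174). As deposited, without library factors, that change was -0.45 (adjusted p = 0.012), and over 8 libraries -0.14 ± 0.10 (0.349).

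Among the repeat arc and its small partners, ANAPC16 had the lowest adjusted p. This small subunit (chromosome 10, 73975758 to 73995618, plus strand) had 8.46, 14.1, 8.21 and 7.57 RPKM in DMOG replicates 1 to 4, against 15.5, 12.1, 13.6 and 16.2 RPKM in vehicle replicates 1 to 4. The groups did not overlap once replicate 2 was left out, with 8.08 ± 0.459 RPKM with DMOG and 15.1 ± 1.31 RPKM with vehicle (SD, n = 3 each). The log2 fold change was -0.55 ± 0.10 (limma-trend adjusted p = 0.00995), and -0.37 ± 0.14 over 8 libraries (adjusted p = 0.133).

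ANAPC7 (chromosome 12, 110810705 to 110841535, minus strand), the repeat subunit found in vertebrates, had 4.74, 8.13, 6.0002 and 3.92 RPKM in DMOG replicates 1 to 4, against 8.77, 6.06, 8.52 and 9.90 RPKM in vehicle replicates 1 to 4. Vehicle replicate 2 was low, and with it added to the 6 libraries the call was lost (-0.43, adjusted p = 0.0576). Without it the log2 fold change was -0.52 ± 0.13 (limma-trend adjusted p = 0.0274), and over 8 libraries -0.31 ± 0.16 (0.215). ANAPC13 (chromosome 3, 134196546 to 134204865, minus strand), which stabilizes the arc, had 9.42, 15.5, 10.1 and 6.48 RPKM in DMOG replicates 1 to 4, against 15.4, 16.2, 13.6 and 16.8 RPKM in vehicle replicates 1 to 4. Its log2 fold change was -0.49 ± 0.15 with an adjusted p of 0.0447 by limma-trend, just inside the threshold, and 0.0513 with upper-quartile factors. Over 8 libraries it was -0.39 ± 0.17 (adjusted p = 0.165).

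The catalytic module was split. ANAPC2 (chromosome 9, 140069236 to 140083057, minus strand), the cullin-like scaffold of the ligase, had 8.59, 10.1, 9.45 and 8.98 RPKM in DMOG replicates 1 to 4, against 12.2, 8.19, 11.03 and 12.8 RPKM in vehicle replicates 1 to 4. Vehicle replicate 2 was the lowest of the 8 libraries, so the groups of 4 overlapped. After scaling the log2 fold change was -0.10 ± 0.10 (limma-trend adjusted p = 0.468), against -0.37 as deposited (adjusted p = 0.0289) and -0.02 ± 0.12 over 8 libraries (0.93). ANAPC11 (chromosome 17, 79848666 to 79858409, plus strand), the RING subunit that receives the ubiquitin-loaded E2, had the highest level per length of the 10. It had 21.2, 22.8, 21.7 and 22.7 RPKM in DMOG replicates 1 to 4, against 24.0, 21.7, 26.4 and 25.0 RPKM in vehicle replicates 1 to 4, and a log2 fold change of 0.10 ± 0.11 (limma-trend adjusted p = 0.501) that was -0.19 as deposited (adjusted p = 0.142). Over 8 libraries it was 0.08 ± 0.10 (adjusted p = 0.611).

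ANAPC10 (chromosome 4, 145915727 to 146019693, minus strand), which forms the receptor for degrons together with a coactivator, was lower too. It had 2.57, 4.20, 3.10 and 1.88 RPKM in DMOG replicates 1 to 4, against 4.90, 4.21, 4.32 and 5.98 RPKM in vehicle replicates 1 to 4. Each DMOG library lay below each vehicle library, replicate 2 by a small margin. ANAPC5 and ANAPC10 were the 2 subunits whose groups of 4 did not overlap, as deposited (12.8% of all genes lay below in this way) and with factors (7.33%). The log2 fold change was -0.56 ± 0.15 (limma-trend adjusted p = 0.0343), -0.71 by limma-voom, and -0.43 ± 0.15 over 8 libraries (adjusted p = 0.122).

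**Figure D2:**
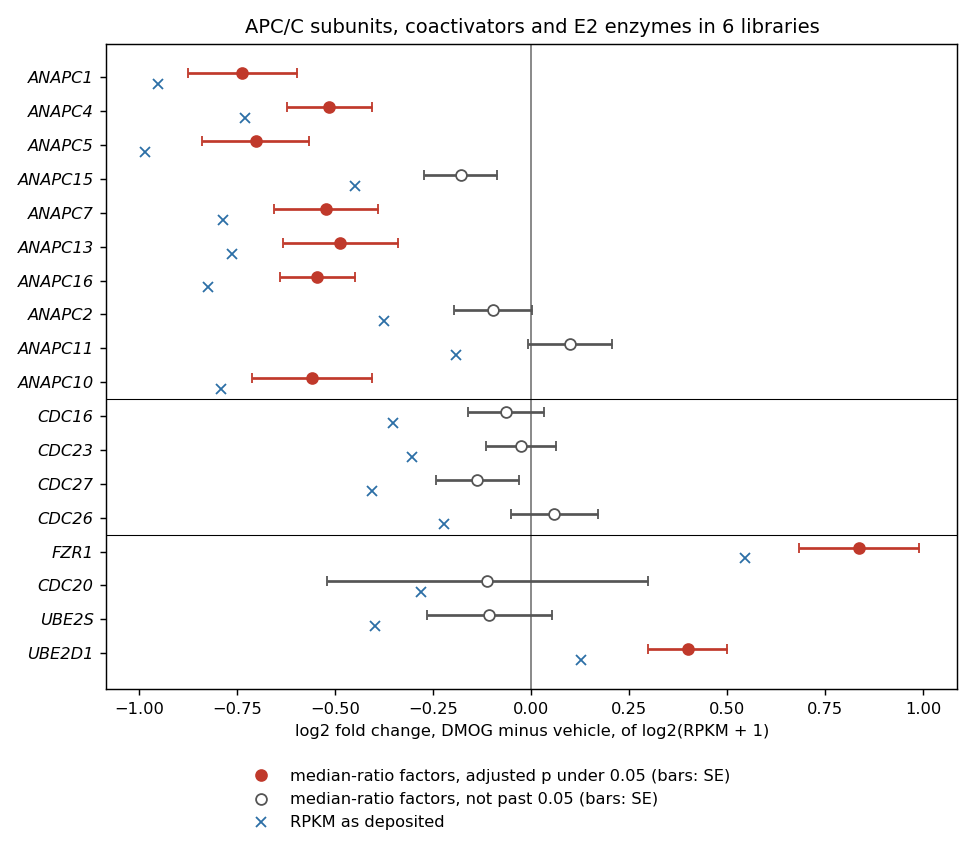
Log2 fold change, DMOG minus vehicle, of log2(RPKM + 1) over 6 libraries for the ANAPC-named subunits (top), the other core subunits (middle) and coactivators and E2 enzymes (bottom); circles with SE bars use median-ratio factors, filled where the limma-trend adjusted p was under 0.05, and crosses use RPKM as deposited. The 7 filled subunits lie between -0.74 and -0.49, ANAPC2, ANAPC11 and the CDC-named subunits lie near 0, and FZR1 lies at 0.84. Changes of low genes are understated on this scale. By limma-voom ANAPC4 (-0.72) and ANAPC10 (-0.71) fell more than ANAPC7 (-0.60) and ANAPC16 (-0.59).

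Scaling sets where 0 lies in these comparisons. With RPKM as deposited the median gene stood at -0.26, 682 genes were called higher and 3836 lower (in place of 1526 and 1792), and 9 of the 10 subunits were called lower (34.5% of all genes lower, 6.13% higher). The median over the 10 subunits was -0.52 with factors and -0.78 as deposited, against -0.00 and -0.26 over all genes. With factors, DMOG replicates 1, 3 and 4 all lay below vehicle replicates 1, 3 and 4 for 8 subunits, ANAPC15 among them, against 26.8% of all genes (24.5% had all DMOG values above). As deposited they did so for 10 of 10 subunits, against 45.6% of all genes. In the authors' deposited table the same 7 subunits had an adjusted p under 0.05 and were lower with DMOG, where 17.6% of its 13424 genes were. The authors' deposited table gave ANAPC1 a log2 fold change of -1.02 and ANAPC13, the smallest of the 7 decreases, -0.51, while ANAPC11 stood at 0.11. Whether less RNA per cell or fewer cells of a kind underlies a lower level cannot be told apart in bulk RNA.

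Ratios between subunits within a library do not depend on that scaling. ANAPC5 stood to ANAPC11, as a ratio of RPKM, at 0.488, 0.788, 0.563 and 0.344 in DMOG replicates 1 to 4, against 0.911, 0.956, 0.731 and 0.841 in vehicle replicates 1 to 4. DMOG replicates 1, 3 and 4 were lowest, and DMOG replicate 2 fell inside the vehicle range. ANAPC1 stood to ANAPC2 at 0.189, 0.382, 0.208 and 0.149 with DMOG, against 0.371, 0.521, 0.298 and 0.356 with vehicle, again with DMOG replicate 2 inside the vehicle range. ANAPC4 stood to CDC23, a core subunit outside the ANAPC names, at 0.177, 0.273, 0.187 and 0.162 with DMOG and at 0.277, 0.282, 0.269 and 0.302 with vehicle. ANAPC16 stood to ANAPC11 at 0.399, 0.619, 0.378 and 0.333 with DMOG and at 0.645, 0.561, 0.517 and 0.645 with vehicle. In every pair DMOG replicates 1, 3 and 4 lay below all 4 vehicle libraries and DMOG replicate 2 lay inside their range. The pairs were picked after their values were seen, and the ratios show unequal change and not which of the paired genes moved.

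**Figure D3:**
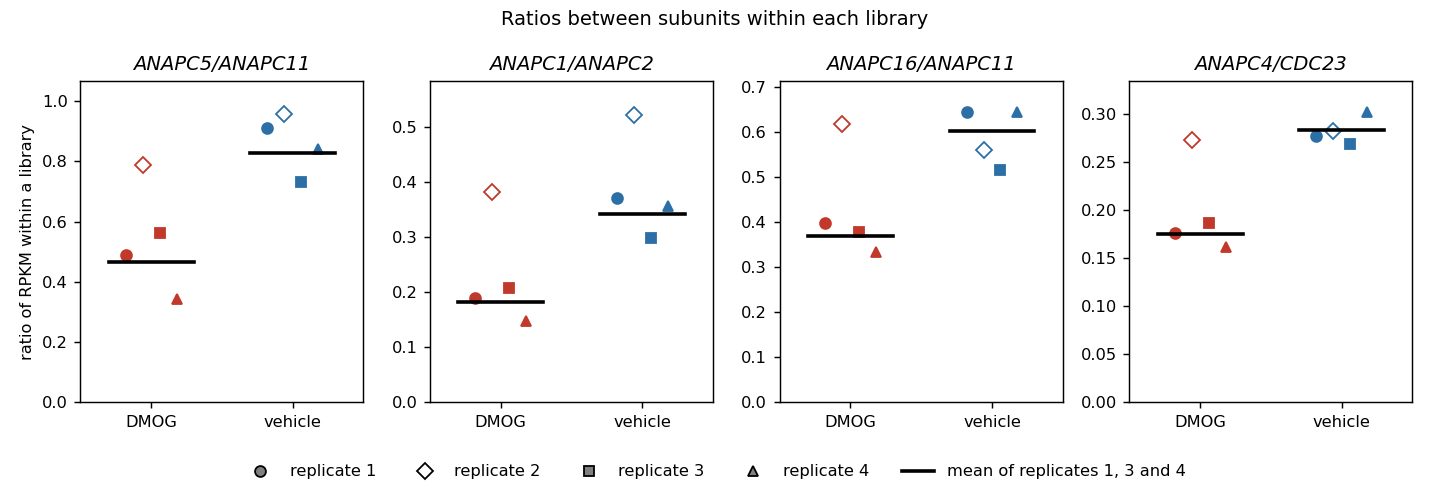
Ratio of RPKM between subunits within each library (vertical axes, each from 0), DMOG and vehicle, with a symbol for each replicate number, open diamonds for replicate 2 and a bar for the mean of replicates 1, 3 and 4. The ANAPC5 to ANAPC11 ratio lies between 0.344 and 0.563 in DMOG replicates 1, 3 and 4 and between 0.731 and 0.956 in the vehicle libraries.

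Per unit of gene length, the subunits were far from equal. In DMOG replicates 1, 3 and 4 the mean level ran from 1.64 RPKM for ANAPC1 to 21.9 RPKM for ANAPC11, a 13.3-fold span, against 6.91-fold from ANAPC4 (3.51 RPKM) to ANAPC11 (24.3 RPKM) over the 4 vehicle libraries. In these DMOG libraries, without replicate 2, the order was ANAPC11, ANAPC5, ANAPC2, ANAPC13, ANAPC16, ANAPC15, ANAPC7, ANAPC10, ANAPC4 and ANAPC1. The ranges of neighbours overlapped from ANAPC5 to ANAPC16 and from ANAPC10 to ANAPC1. With vehicle the order was ANAPC11, ANAPC5, ANAPC13, ANAPC16, ANAPC2, ANAPC15, ANAPC7, ANAPC10, ANAPC1 and ANAPC4. There the ranges overlapped between ANAPC11 and ANAPC5, along ANAPC13, ANAPC16, ANAPC2, ANAPC15 and ANAPC7, and from ANAPC10 to ANAPC4. ANAPC7 lay clear of ANAPC10 in DMOG replicates 1, 3 and 4 and in the 4 vehicle libraries. With DMOG replicate 2 included their ranges overlapped, as ANAPC10 had 4.20 RPKM in it and ANAPC7 3.92 RPKM in DMOG replicate 4.

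The subunits also differed among the DMOG libraries in a shared order. For ANAPC1, ANAPC4, ANAPC5, ANAPC7, ANAPC10 and ANAPC13, 6 of the 10, the level was lowest in replicate 4, next in replicate 1, next in replicate 3 and highest in replicate 2. ENO2 ran through these 4 libraries in the opposite order, and so did CA9, a carbonic anhydrase induced by HIF, with 25.2, 2.56, 9.97 and 57.5 RPKM in DMOG replicates 1 to 4, against 0.925, 1.29, 0.129 and 0.586 RPKM in vehicle replicates 1 to 4. After scaling, 15.3% of all genes tested, and 53.9% of the 1792 called lower, held the order of these 6 subunits. The share of genes in the opposite order was not counted. Whether the order of the subunits is linked to that of ENO2 and CA9 was not tested. As deposited, ANAPC15 and ANAPC16 differed little among replicates 1, 3 and 4, and both were far higher in replicate 2. With factors ANAPC15 stood at 7.59, 9.08, 7.42 and 8.06 in DMOG replicates 1 to 4.

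The remaining core subunits, which have CDC names and were listed as a separate group, did not pass in either direction, 0 of 4 by limma-trend, by limma-voom or at an unadjusted p under 0.05. CDC16, CDC23 and CDC27, the repeat subunits that build the arc with ANAPC7, had log2 fold changes of -0.06 ± 0.10, -0.03 ± 0.09 and -0.14 ± 0.11 (limma-trend adjusted p = 0.628, 0.837 and 0.343). CDC26, a small partner of CDC16, stood at 0.06 ± 0.11 (adjusted p = 0.703). As deposited, CDC16, CDC23 and CDC27 passed (-0.35, -0.30 and -0.41, adjusted p = 0.0312, 0.0432 and 0.0381) and CDC26 stood at -0.22 (0.183). CDC16 had 14.6, 17.3, 16.9 and 14.9 RPKM in DMOG replicates 1 to 4, against 19.4, 19.5, 19.9 and 20.7 RPKM in vehicle replicates 1 to 4. Whether the ANAPC-named and CDC-named subunits differ as groups was not tested.

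Of the coactivators, FZR1 rose. FZR1 (chromosome 19, 3506295 to 3536755) had 27.6, 16.0, 29.7 and 29.5 RPKM in DMOG replicates 1 to 4, against 18.3, 14.9, 23.7 and 17.1 RPKM in vehicle replicates 1 to 4. DMOG replicates 1, 3 and 4 lay above every vehicle library and replicate 2 lay near the lowest of them. The means were 28.9 ± 1.14 RPKM with DMOG and 19.7 ± 3.48 RPKM with vehicle (SD, n = 3 each). FZR1 was higher by 0.84 ± 0.15 on the log2 scale (limma-trend adjusted p = 0.0109), and 0.55 as deposited (0.0189). The call was lost without vehicle replicate 1 (adjusted p = 0.0538) and over 8 libraries (0.64 ± 0.25, adjusted p = 0.139). CDC20 (chromosome 1, 43824626 to 43828873) had 1.64, 2.60, 2.29 and 0.554 RPKM with DMOG, against 3.98, 9.69, 1.81 and 0.736 RPKM with vehicle, and its groups overlapped (-0.11 ± 0.41, adjusted p = 0.846).

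Of the E2 enzymes, which pass ubiquitin to substrates held by the APC/C, UBE2D1 was higher by 0.40 ± 0.10 on the log2 scale (limma-trend adjusted p = 0.0268). That call was lost as deposited (0.13, adjusted p = 0.377) and over 8 libraries (0.118). It was also lost without vehicle replicates 1, 3 or 4 (0.11, 0.0512 and 0.11) or DMOG replicate 1 (0.0965). UBE2S, the chain-elongating E2, stood at -0.11 ± 0.16 (adjusted p = 0.625). UBE2C, the chain-initiating E2, did not pass the filter, with 0.901, 3.18, 0.270 and 0.178 RPKM in DMOG replicates 1 to 4, against 3.47, 4.59, 0.298 and 0.256 RPKM in vehicle replicates 1 to 4. Its level went with the replicate number, high in replicates 1 and 2 of the vehicle group.

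That pattern held for most mitotic substrates. Of 23 cell cycle substrates (cyclins, mitotic kinases and other proteins that the APC/C destroys), 21 were higher in vehicle replicates 1 and 2 than in vehicle replicates 3 and 4, and 16 showed the same among DMOG libraries. Of the 10 ANAPC-named subunits 0 did so with vehicle and 2 with DMOG. The share of all genes with this pattern was not counted, so these counts do not set substrates apart from other genes. Of the 23 substrates, 14 lay under 1 RPKM in each of DMOG replicates 1, 3 and 4. Only 9 of the 23 substrates passed the filter, and 0 were called higher and 0 lower by limma-trend, limma-voom or an unadjusted p under 0.05, with a median log2 fold change of 0.14. Cyclin B1 (CCNB1) had 0.978, 2.30, 0.614 and 0.487 RPKM in DMOG replicates 1 to 4, against 2.85, 3.32, 0.763 and 0.813 RPKM in vehicle replicates 1 to 4. For every one of the 23 substrates the DMOG and vehicle ranges of 4 libraries overlapped. Of 4 proliferation markers MCM2 and PCNA passed the filter. MCM2, a subunit of the replicative helicase, stood at 0.03 ± 0.19 (limma-trend adjusted p = 0.909). PCNA, the replication clamp, had a log2 fold change of -1.06 ± 0.18 (limma-trend adjusted p = 0.0089), a call lost over 8 libraries (0.118).

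**Figure D4:**
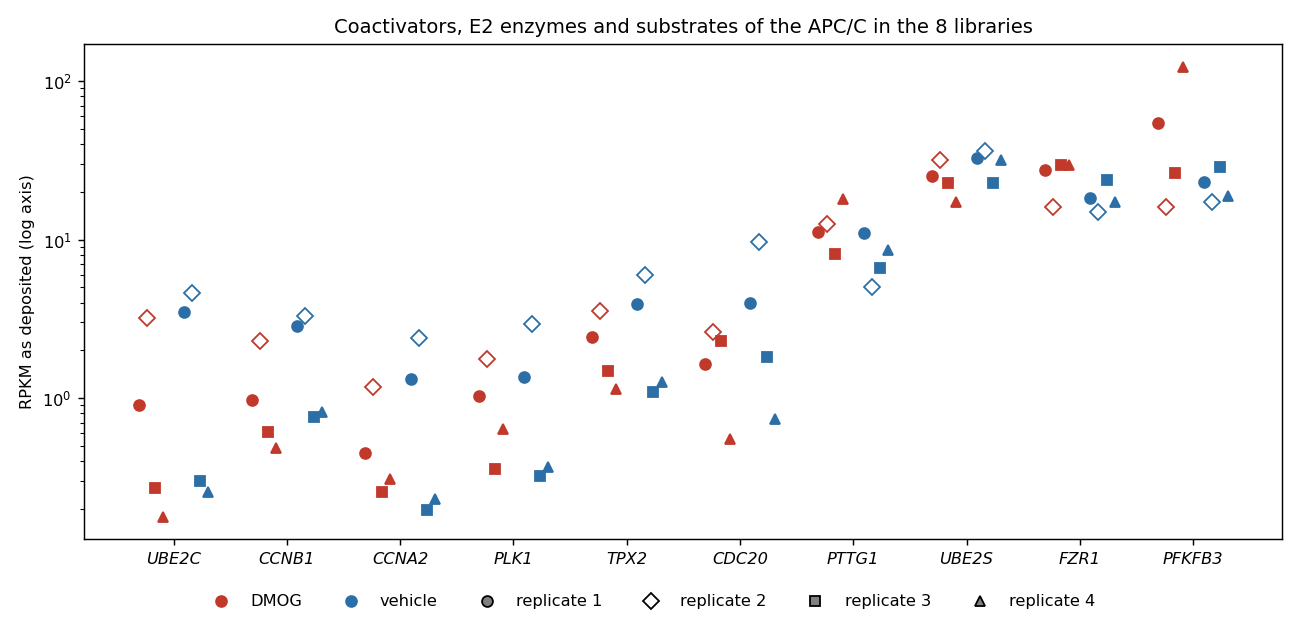
RPKM as deposited (log axis) of E2 enzymes, coactivators and substrates of the APC/C in each library, DMOG in red left of vehicle in blue, with a symbol for each replicate number. UBE2C, CCNB1, CCNA2, PLK1 and TPX2 are high in vehicle replicates 1 and 2 and low in vehicle replicates 3 and 4, while FZR1 is high in DMOG replicates 1, 3 and 4.

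Of 11 inhibitors and checkpoint genes 6 passed the filter, 1 was lower and 0 were higher (median -0.29). The member that fell was BUB3, which carries checkpoint proteins to kinetochores, with 18.5, 27.9, 19.5 and 15.2 RPKM in DMOG replicates 1 to 4, against 30.1, 31.8, 28.7 and 28.6 RPKM in vehicle replicates 1 to 4. As deposited all 4 DMOG libraries lay below all 4 vehicle libraries, but with factors DMOG replicate 2 (26.6) lay above vehicle replicate 4 (25.4). The log2 fold change was -0.40 ± 0.10 (limma-trend adjusted p = 0.0258). The call was lost over 8 libraries (0.129) and without vehicle replicates 1, 3 or 4 (0.1, 0.0751 and 0.075) or DMOG replicate 1 (0.077).

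PFKFB3, a metabolic enzyme known as a substrate of APC/C with FZR1, makes the activator of phosphofructokinase. It had 54.6, 16.0, 26.4 and 123 RPKM in DMOG replicates 1 to 4, against 22.9, 17.3, 28.5 and 18.8 RPKM in vehicle replicates 1 to 4. As deposited, DMOG replicates 1 and 4 were high and replicates 2 and 3 lay at vehicle level. With factors DMOG replicate 3 (28.2) lay above vehicle replicates 1, 3 and 4 (20.4, 26.6 and 16.5). The log2 fold change was 1.55 ± 0.53 (limma-trend adjusted p = 0.0643), which did not pass, and it passed without DMOG replicate 3 (2.10, adjusted p = 0.00808) or with vehicle replicate 2 added (1.61, 0.0305).

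Other parts of the ubiquitin system were counted in the same fit, in which 16.1% of all genes were lower and 13.7% higher (34.5% and 6.13% as deposited). Of 34 proteasome subunits 7 were lower and 1 higher (median -0.33), or 27 and 0 as deposited. Of 14 cullin-RING ligase core genes 1 was lower and 1 higher (median -0.10), or 8 and 1 as deposited. The cullin CUL4A was lower (-0.38 ± 0.11, limma-trend adjusted p = 0.039) and its paralog CUL4B higher (0.64 ± 0.10, adjusted p = 0.00793). The CUL4A call was lost with no filter (0.0576), over 8 libraries (0.139) and without any of vehicle replicates 1, 3 and 4 (0.0869, 0.111 and 0.128) or DMOG replicates 1 and 4 (0.116 and 0.0685), and CUL4B was lost over 8 libraries (0.118). No test compared these lists with the APC/C.

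Several features of the subunits that played no part in choosing them were tabulated. The longest GENCODE v29 coding model ran from 222 bases for ANAPC13 to 5832 bases for ANAPC1, and both were among the 7 lower subunits. Transcript GC content was 36.9% to 50.2% in the 7 lower subunits, and 63.3%, 58.7% and 48.5% in ANAPC2, ANAPC11 and ANAPC15. The 4 CDC-named subunits, of which 0 passed, had 39.4% to 44.3%. Over 10153 genes with a GC value, the median was 48.2% in genes called lower, 53.1% in genes called higher and 49.7% in all, and GC content and log2 fold change correlated across genes (Pearson 0.11, genes not being independent replicates). The part of GC content in the result was not tested. Of 5 basal keratinocyte markers 4 were called higher, and TP63, the basal transcription factor, stood at -0.28 (adjusted p = 0.0859). As deposited 1 was higher and 1, TP63, lower (-0.57, adjusted p = 0.00845). With factors, DMOG replicates 1, 3 and 4 all lay above vehicle replicates 1, 3 and 4 for 4 of the 5 (24.5% of all genes). They all lay below for 1, TP63 (26.8% of all genes). Over all 8 libraries as deposited, the summed level of the 5 overlapped between the groups. It ran from 11672 to 13949 RPKM with DMOG and from 8388 to 16592 RPKM with vehicle. KRT5 was highest in vehicle replicate 2 (8148 RPKM), a library outside the 6. Suprabasal markers summed to 4703 to 8723 RPKM with DMOG and 6489 to 7743 RPKM with vehicle, 0 of 5 called, and proliferation markers to 8.69 to 30.4 RPKM with DMOG and 26.6 to 37.8 RPKM with vehicle. Their part in the result was not tested.

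Of the 10 subunit genes, 6 overlap a gene on the opposite strand in the table's positions, and no source used here says whether reads were counted by strand, so these values are uncertain. ANAPC2 starts 3 bases from SSNA1, ANAPC10 537 bases from ABCE1, ANAPC11 796 bases from ALYREF, ANAPC13 290 bases from CEP63 and ANAPC16 1134 bases from ASCC1, each pair running head to head. ANAPC15 overlaps LRTOMT by 1196 bases at its other end. Of the 5 partners tested, 0 were called with factors, where 29.8% of all genes were called in either direction. As deposited, 5 were lower (limma-trend adjusted p from 0.0152 to 0.04), where 34.5% of all genes were called lower. LRTOMT did not pass the filter. ABCE1, a ribosome-recycling factor, had 7.14, 18.0, 11.9 and 2.21 RPKM in DMOG replicates 1 to 4, against 19.8, 18.5, 21.2 and 22.3 RPKM in vehicle replicates 1 to 4 (-1.40 ± 0.44, limma-trend adjusted p = 0.0511), and ALYREF, an mRNA export factor, had a log2 fold change of -0.60 ± 0.20 (0.0566). SSNA1, CEP63 and ASCC1 stood at -0.09, -0.22 and -0.22 (adjusted p = 0.529, 0.222 and 0.133). ANAPC1P1, a pseudogene copy of ANAPC1, is listed at 0 in every library, and no source used here says how reads shared with such copies were assigned.

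Promoter windows are shown for the 5 subunits without a head-to-head partner, of which 4 were called lower and ANAPC15 was not. Each is the 250 bases before the first start that RefSeq lists (GRCh38.p14), 5′ to 3′ on the gene's strand. Capitals mark ACGTG, a form of the core of HIF-binding sequences, or its reverse complement CACGT. The other form, GCGTG, was neither marked nor counted. The windows are chr2:111884194-111884443 (ANAPC1, minus strand), chr4:25377013-25377262 (ANAPC4, plus strand), chr12:121352412-121352661 (ANAPC5), chr12:110403709-110403958 (ANAPC7) and chr11:72112696-72112945 (ANAPC15), the last 3 on the minus strand.
ANAPC1: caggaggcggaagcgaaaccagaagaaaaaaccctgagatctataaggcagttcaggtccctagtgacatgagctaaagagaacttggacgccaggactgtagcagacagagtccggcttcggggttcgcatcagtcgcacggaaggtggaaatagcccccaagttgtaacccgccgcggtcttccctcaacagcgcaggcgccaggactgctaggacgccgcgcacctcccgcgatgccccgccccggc
ANAPC4: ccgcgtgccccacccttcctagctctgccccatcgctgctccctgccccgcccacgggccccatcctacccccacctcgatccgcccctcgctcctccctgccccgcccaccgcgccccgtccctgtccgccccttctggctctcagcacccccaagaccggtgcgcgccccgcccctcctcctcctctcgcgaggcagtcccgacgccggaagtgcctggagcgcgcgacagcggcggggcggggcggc
ANAPC5: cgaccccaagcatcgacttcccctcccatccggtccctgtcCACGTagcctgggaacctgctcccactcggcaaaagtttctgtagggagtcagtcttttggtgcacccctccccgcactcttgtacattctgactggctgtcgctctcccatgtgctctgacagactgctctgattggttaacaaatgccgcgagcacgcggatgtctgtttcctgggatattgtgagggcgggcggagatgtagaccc
ANAPC7: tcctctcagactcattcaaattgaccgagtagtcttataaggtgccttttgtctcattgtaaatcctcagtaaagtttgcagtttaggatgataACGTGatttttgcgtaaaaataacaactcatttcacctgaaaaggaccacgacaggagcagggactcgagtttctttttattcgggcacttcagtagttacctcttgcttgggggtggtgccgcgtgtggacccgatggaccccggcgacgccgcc
ANAPC15: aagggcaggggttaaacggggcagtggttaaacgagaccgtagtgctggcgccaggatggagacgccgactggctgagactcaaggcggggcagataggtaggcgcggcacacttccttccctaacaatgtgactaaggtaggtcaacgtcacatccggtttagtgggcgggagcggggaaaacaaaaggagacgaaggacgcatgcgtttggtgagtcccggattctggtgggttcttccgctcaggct
ACGTG or CACGT occurs in the ANAPC5 and ANAPC7 windows and in none of the other 3. The unmarked form GCGTG, on either strand, occurs in the ANAPC4, ANAPC5 and ANAPC7 windows. Counting all 21 start windows listed for the 10 subunits, some of which overlap, 9 windows of 6 subunits hold ACGTG on either strand, against 18.5% of 35116 windows in the table. These were ANAPC5, ANAPC7, ANAPC10 and ANAPC13, which were called lower, and ANAPC2 and ANAPC11, which were not. CCAAT on either strand lay in 6 of the 21 windows (32.0% of all windows). GCGC, then any base, then TGCGC, a sequence that the factor NRF1 can bind, lay on either strand in 6 of the 21 windows, those of ANAPC1, ANAPC2, ANAPC11 and ANAPC13 (5.07% of all windows). A match describes these letters and not binding.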

How the data were processed

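The authors deposited RPKM values for 8 libraries, although the table's name speaks of counts. TopHat2 2.0.13, Bowtie2 2.2.3.0 and HTSeq 0.6.1 were among the tools, per the submitters' processing notes, which give no role and name both hg19 and hg38. Positions in the deposited tables are those of hg19. RPKM times gene length came out as whole reads within 0.01 reads for 100% of values above 0. The 597 genes with several listed positions stayed out of that step. The authors also deposited a comparison: mean signal per group, the fold ratio, its log2, a p-value and an adjusted p. No source used here names its tool.

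Genes reaching 1 RPKM in 4 or more of the 8 libraries were tested with limma-trend (limma 3.58.1, R 4.3.3, robust empirical Bayes, two-sided, Benjamini-Hochberg, threshold 0.05) on log2(RPKM/factor + 1), with median-ratio factors and the group as the only term. Fold changes on this scale understate the change of low genes. Means with SD are RPKM as deposited, and n = 3 means replicates 1, 3 and 4. The 6-library comparison follows the authors' deposited table. No source used here says why replicate 2 was left out there, and the p-values do not allow for that choice. On data simulated with 11041 genes the 6-library fit recovered 96% of 2-fold and 100% of 4-fold changes, with 9 false calls. The simulation gave every gene the same set spread and every DMOG library the same change. In the data the DMOG libraries differed, so these rates do not describe the power of this fit. The sample titles number the replicates and do not say that equal numbers are pairs. Among the 6 libraries, those with the same number deviated together from their group means, with correlations of 0.47, 0.40 and 0.34. Over all 8 libraries these correlations were 0.07, -0.02, 0.53 and 0.24 for replicates 1 to 4. Alternatives were RPKM as deposited, upper-quartile factors, a pseudocount of 0.1, no filter, the replicate block, limma-voom on the recovered reads, and leaving out or adding libraries. Named were all 10 subunits, every gene of lists of 6 or fewer and, from longer lists, up to 3 called genes in each direction, plus genes that overlap a subunit or start within 1000 bases of it. CCNB1, CCNA2, PLK1, TPX2, MCM2, PCNA, ENO2, CA9, KRT5, KRT8, TP63, VWF, DCN and HDC were added after their values were seen. A gene fixed for naming is not reported here. The subunits and lists were chosen with earlier results of these data known.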

Additional observations from a re-analysis of the deposited data

Results flagged for a closer look

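Within groups of 4 libraries, 3 of the 48 gene and group combinations examined had a library far from the others (6.25%). Chance gives about 1 in 20. The check used RPKM as deposited and was not run with factors. All 3 flagged libraries were DMOG replicate 2. ANAPC15 stood at 9.53 RPKM in it, against 6.79 to 6.90 RPKM in the other DMOG libraries. With factors ANAPC15 stood at 9.08, against 7.42 to 8.06. ANAPC16 stood at 14.1 RPKM, against 7.57 to 8.46 RPKM, and with factors at 13.5, against 8.88 to 9.30. FZR1 stood at 16.0 RPKM, against 27.6 to 29.7 RPKM.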

How the results depend on the processing

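Leaving out each of the 6 libraries in turn gave 0 to 7 subunits called lower, in place of 7, and 0 subunits called lower with all 8 libraries. Genes called ranged from 379 to 2224 higher and from 539 to 2527 lower, and as deposited they were 682 and 3836. Leaving out each of the 8 libraries gave 0 to 1724 genes higher and 0 to 1970 lower, both highest counts without DMOG replicate 2. No other setting moved these counts by over 1.5 times, and subunits called lower were 5 with no filter, 6 with upper-quartile factors or vehicle replicate 2 added, and 7 with a pseudocount of 0.1 or limma-voom. With the replicate block 7 subunits were lower and 2181 and 2337 genes were called, so blocking on replicate number changed no call among the subunits. ANAPC2, ANAPC4, ANAPC5, ANAPC1, ANAPC7, ANAPC10, ANAPC13, ANAPC15 and ANAPC16 kept a negative fold change under all 14 alternatives. Signs turned for ANAPC11 (-0.19) and CDC26 (-0.22) as deposited and for CDC23 with upper-quartile factors (0.0010). Without a library they turned for CDC20 (0.25 without vehicle replicate 1, 0.20 without DMOG replicate 4; range -0.47 to 0.25) and UBE2S (0.0053 without DMOG replicate 4; range -0.25 to 0.0053). None of these genes had passed. The causes were not tested. Depth limits ANAPC4 and ANAPC10 most, with as few as 130 and 115 reads.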
